A study of Gallus gallus with 6 samples.

Results

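The baseline transcriptome of chicken neural crest cultures, started from neural tube explants, was described from the 3 media control arrays of a series of 6. Genes of the neural tube and of epithelia were detected on these arrays beside crest genes. The members were chosen by sample title as control 1, control 2 and control 3. Neural tube explants of stage 9+ chicken embryos were grown for 4 h and then kept in media for a further 6 h. The other 3 cultures received homocysteine at 100 uM for those 6 h and are not described here. The labels name no strain, embryo number or axial level of the explants, and do not say whether the explanted tube was removed before lysis or whether embryos were pooled. They do not say that the 3 arrays came from separate cultures, so the spread between them may be technical. The RNA protocol speaks of whole embryos or tissues, while the design speaks of cell cultures.

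Neural crest cells arise at the border between neural plate and surface ectoderm, take up positions in the dorsal neural tube, and leave it by an epithelial to mesenchymal transition. Border factors of the PAX, MSX, ZIC and TFAP2 families act before the specifiers FOXD3, SNAI2, SOX8, SOX9 and SOX10, which are known from chicken and other vertebrates. Migrating cells give rise to peripheral neurons and glia, pigment cells and, in the head, cartilage and bone. A neural tube explant carries the whole wall of the tube with it, so progenitors, floor plate, roof plate and young neurons can be part of such a sample, as can adhering ectoderm, mesoderm, endoderm and vessels.

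Each array read 38535 probe sets on a linear intensity scale. After 96 manufacturer control sets and 57 reporter sets had been dropped, 38382 remained. Reporter sets match exogenous sequences, and the 95th percentile of their intensities served as the background of an array, at 53.7 on control 1, 64.3 on control 2 and 65.6 on control 3. A probe set or gene is called above background here when its intensity passes that value on all 3 arrays. This held for 16197 probe sets (42.2%) and, with the brightest probe set taken for each of 13008 gene symbols, for 8513 genes (65.4%). A further 2545 genes (19.6%) were above background on no array, and the remaining 1950 genes on 1 or 2. A gene below background has only an upper bound on its signal, which does not show that its transcript was missing. Probe sets differ in how brightly they report the same amount of RNA, so ranks below order probe sets by brightness and not genes by transcript number.

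Control 1 stood apart from the other 2 arrays in 2 of the 3 genes with probe sets at both ends of the transcript. The ratio of the 5' to the 3' probe set of beta-actin was 0.0572 on control 1, against 0.410 on control 2 and 0.287 on control 3. The same ratio for GAPDH was 0.318 on control 1, against 0.685 on control 2 and 0.663 on control 3. For the elongation factor EF1A the gap was small, 0.479 on control 1, against 0.544 on control 2 and 0.541 on control 3. Pearson correlations of log2 intensity across the 8513 genes, which are not independent replicates, were 0.947 between controls 1 and 2, 0.958 between controls 1 and 3 and 0.982 between controls 2 and 3. Triplets of intensities below are in the order control 1, control 2, control 3.

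The brightest end of the transcriptome belonged to protein synthesis. Genes of cytosolic ribosomal proteins made up 17 of the brightest 25 genes, 32 of the brightest 50 and 48 of the brightest 100. All 58 measured members of the ribosomal list (against 65.4% of all genes) were above background. Their median intensity was 25610 against 254.2 over all 13008 genes. RPL35, a protein of the large subunit, ranked at the top with intensities of 40086, 36987 and 33783. RPS16, of the small subunit, followed at 38050.2, 36904 and 33359, and RPL37 at 33010.1, 36401 and 32781. The other ribosomal protein genes among the 25 were RPS20, RPL30, RPS2, RPL9, RPL19, RPL27A, RPS6, RPL11, RPL38, RPS25, RPL4, RPS21, RPL26L1 and RPS3A, with means between 28000.1 and 33785.

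Outside the ribosome, 8 genes reached the brightest 25. YBX1, a protein that binds and packages mRNA, averaged 32516 ± 2443 (SD, n = 3). The glycolytic enzyme ENO1 averaged 31883 ± 1945 (SD, n = 3), and SLC25A6, which exchanges ADP and ATP across the inner mitochondrial membrane, 31638 ± 3656 (SD, n = 3). SEC61B, part of the channel that moves new proteins into the endoplasmic reticulum, averaged 31729 ± 960.3 (SD, n = 3). For SEC61B 3 of 6 probe sets were above background on all arrays. The other genes of the 8 were the translation elongation factor EEF1A1, the histone chaperone family member ANP32B, the chaperone HSPA8 and thioredoxin, TXN. Their means lay between 28519.8 and 28986. GAPDH, often used as a reference transcript, read 25033, 30218 and 28626, and ACTB, cytoplasmic actin, read 24569, 31744 and 26877. Both were dimmest on control 1.

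Cell cycle genes were detected almost without exception. Of 33 measured cell cycle genes 32 (97.0%, against 65.4% of all genes) were above background. Their median intensity of 4661 stands beside 254.2 for all genes. In bulk RNA such as this, fewer cells of a type and less RNA per cell cannot be told apart. CDK1, the kinase that drives entry into mitosis, read 12839, 16796 and 14868, and its partner cyclin CCNB1 read 9611, 15536 and 13633. RRM2, the subunit of ribonucleotide reductase made in S phase, read 14551, 13842 and 11116. TPX2, a spindle assembly factor, read 15690.1, 10829 and 10794 and was highest on control 1, while PCNA, the replication clamp, read 4781, 11751 and 8597 and was lowest there. AURKB, the kinase of the chromosomal passenger complex, read 12074, 12005 and 11159, the narrowest range of these 6. The inhibitor CDKN2B was the only measured member not above background on all arrays, being above it on 1 of 3.

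**Figure D1:**
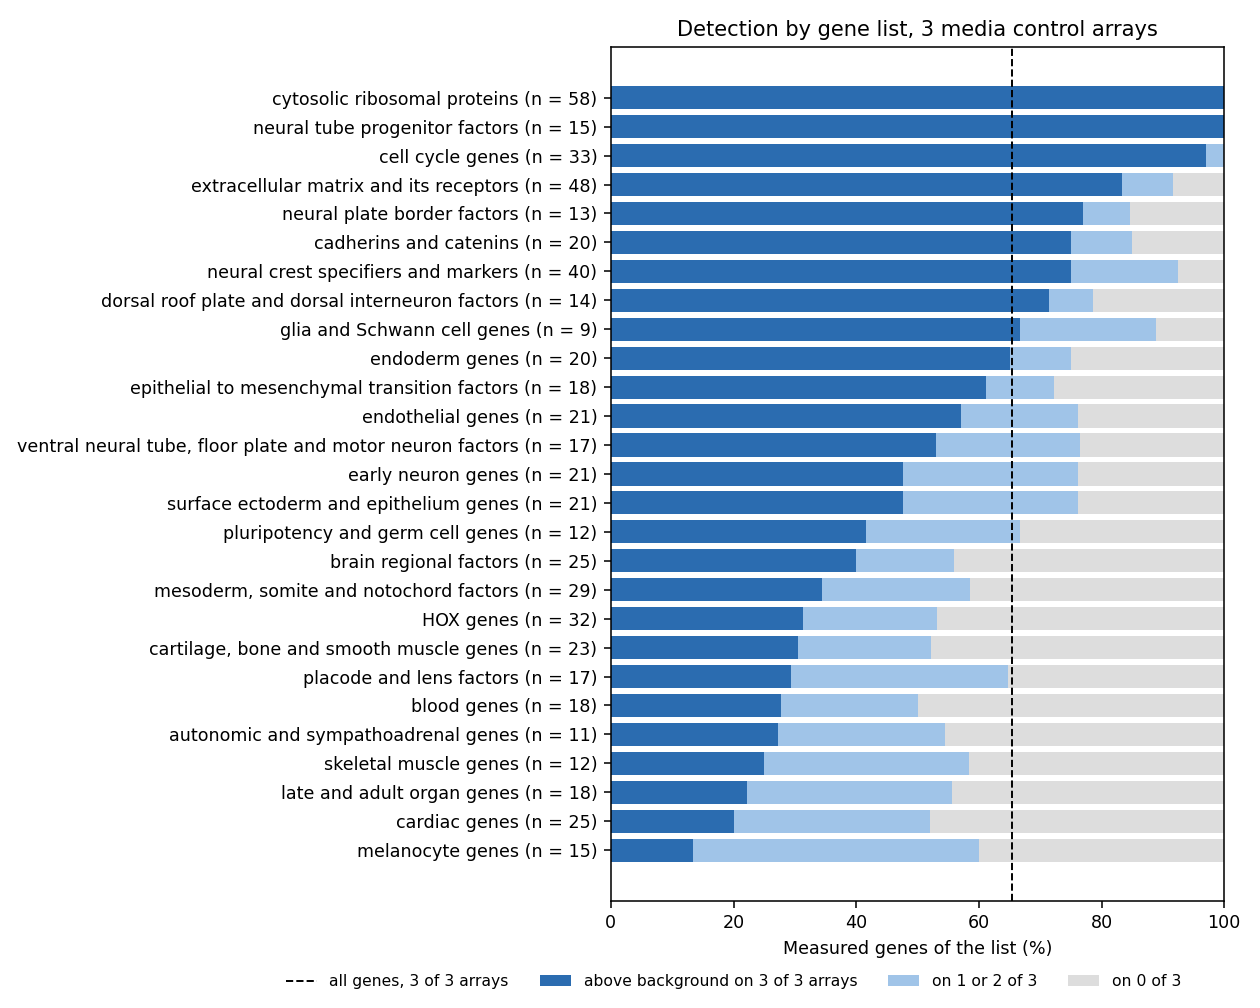
Share (percent) of the measured genes of 27 lists that were above background on all 3 media control arrays, on 1 or 2, or on none, with a dashed line at the share over all 13008 genes, 65.4%. All 15 neural tube progenitor factors and 30 of 40 neural crest genes were above background on all arrays, as were 2 of 15 melanocyte genes.

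Transcription factors of neural plate, crest and early lineages spanned a wide range of brightness. Of 141 measured factors 69 (48.9%, against 65.4% of all genes) were above background, 48 on none of the arrays and 24 on 1 or 2, and 8 lay among the brightest 1000 genes. TCF12, a class I bHLH factor that pairs with lineage bHLH proteins, ranked 149 of all genes at 22023, 16159 and 15365. MYCN, which keeps neural and crest progenitors proliferating, ranked 209 at 17262, 14414 and 13622. GBX2, ZIC2 and ZIC1, described with the border factors, ranked 321, 325 and 370. PAX6, SOX3 and HES6, factors of the neural tube wall, ranked 841, 871 and 999. Next came DLX5 at rank 1371, SOX10 at 1396, ZEB2 at 1487, HOXD4 at 1550, TCF3 at 1638, ZEB1 at 1675 and NR2F2 at 1678.

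**Figure D2:**
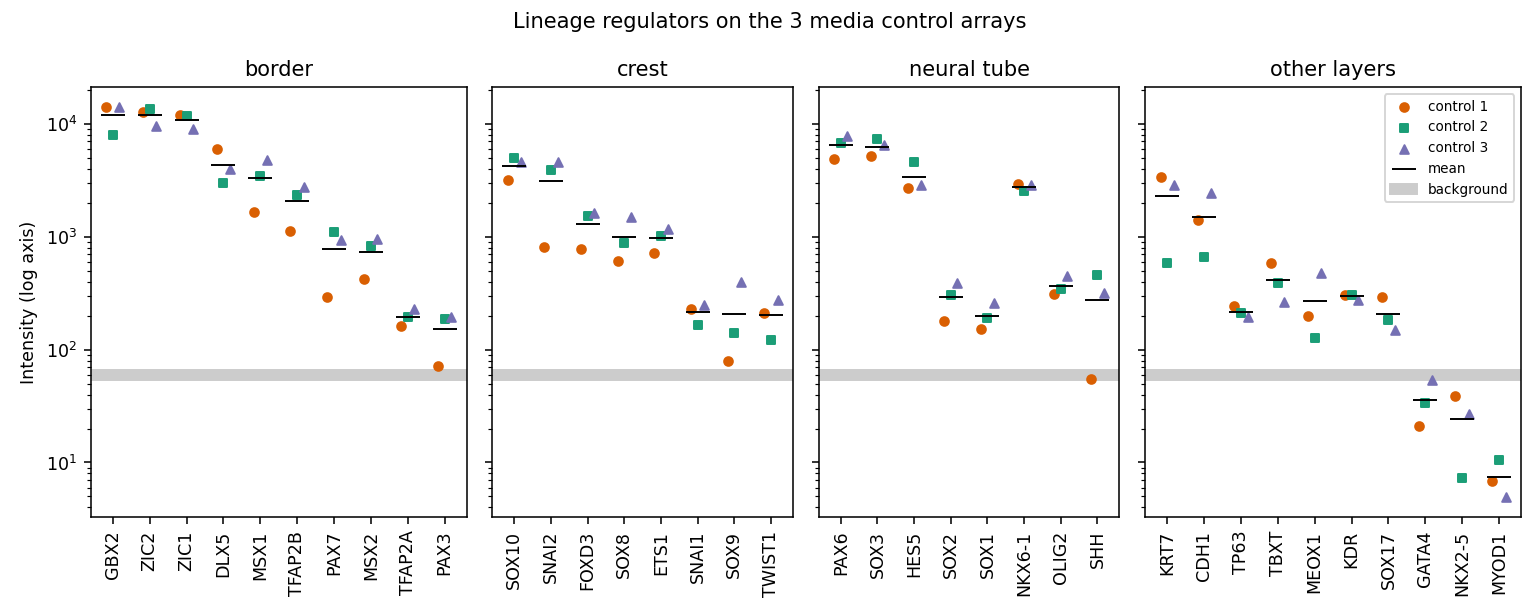
Intensity (log axis) of regulators of the neural plate border, the neural crest, the neural tube and other germ layers on each media control array, with a bar at the mean and a grey band over the range of the 3 backgrounds. SOX10 lies between 3161 and 4965, SNAI2 at 806 on control 1 and at 3915 and 4578 on controls 2 and 3, and MYOD1 below the band on every array.

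Of 13 measured factors of the neural plate border 10 (76.9%, against 65.4% of all genes) were above background, 1 on some arrays and 2 on none. GBX2, a homeobox factor that acts at the border and in the anterior hindbrain, read 14193, 7996 and 14074 and was lowest on control 2. ZIC2, a zinc finger factor of the border and dorsal tube, read 12859, 13591 and 9569.6. Its relative ZIC1 read 11939, 11825 and 8943, and both were lowest on control 3. DLX5, a homeobox factor of the border on its ectodermal side, read 5979, 3018 and 4023 and was highest on control 1. For ZIC2 and DLX5 1 of 2 probe sets each was above background on all arrays.

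The other detected members of the border list were lowest on control 1. MSX1, a target of BMP signalling in the dorsal tube, read 1672, 3484 and 4796, and TFAP2B, an AP-2 factor of crest cells, read 1116, 2331 and 2789.8. PAX7, an early border marker of chicken crest, read 295, 1101 and 934, and its relative PAX3 read 71.0, 187 and 195, just above background on control 1. MSX2 read 426, 831 and 958. TFAP2A, an AP-2 factor required for crest induction, read 162, 194 and 228, the narrowest spread of these 6 genes. TFAP2C, at 12.1, 45.4 and 10.8, and DLX3, at 2.70, 4.00 and 9.70, were not above background on any array. Both are known for their expression in ectoderm outside the neural plate.

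Of the neural crest specifiers and markers, 30 of 40 measured (against 65.4% of all genes) were above background, 7 on some arrays and 3 on none. SOX10, which marks crest cells as they leave the tube and later keeps glia and melanoblasts, averaged 4239 ± 953 (SD, n = 3) from 3161, 4965 and 4592. Of the 2 probe sets of SOX10, 1 was above background on all arrays. FOXD3, an early specifier, read 784, 1535 and 1615. SNAI2, the repressor of epithelial genes used as a marker of premigratory chicken crest, read 806, 3915 and 4578. For both FOXD3 and SNAI2 control 1 was the low array, and without it SNAI2 lay within 3915 and 4578.

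The SOXE family was uneven in its spread. SOX8 read 607, 876 and 1509 and SOX9, which acts before SOX10 and promotes survival of crest cells, read 79.0, 141 and 397. SOX9 ran over a 5.03-fold range, with control 3 the highest of the 3 arrays and control 1 the lowest, and without control 1 the log2 difference of control 2 from control 3 was -1.50. ETS1, a factor of cranial crest delamination, read 714, 1025 and 1172 from the brightest of its 6 probe sets, of which 2 were above background on all arrays. TWIST1, a bHLH factor of crest mesenchyme, read 209.6, 122 and 274, and SNAI1 read 228, 164 and 248.

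The brightest genes of the crest list had roles that are not limited to crest. After MYCN came RHOB, a small GTPase expressed in delaminating chicken crest, at 11942, 17633 and 13909. ITGA4, an integrin subunit that binds fibronectin on migrating crest, read 14503, 13396 and 6408 and was lowest on control 3. ID2, an inhibitor of bHLH factors that promotes crest over epidermis in chicken, read 11248, 11632 and 10323, and the LIM-only cofactor LMO4 read 9399.7, 9136 and 9085. Other ID genes were lowest on control 1: ID1 read 939.5, 6877 and 4526, ID3 242, 802 and 757 and ID4 1732, 3377 and 2892. MYC, expressed at the border, read 966, 2435 and 2149 and CXCR4, a chemokine receptor of migrating cells, 889, 2149 and 2194.

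Receptors through which crest cells are guided and sorted were above background as well. EDNRB, an endothelin receptor of crest leaving the tube, read 1539.7, 1298 and 1236, and EDNRA, used by cranial crest, read 842, 624 and 764. The semaphorin receptor NRP1 read 1774, 1423 and 1597. Its relative NRP2 read 706, 608 and 759, and neither spanned a 1.5-fold range. RET, the GDNF receptor of enteric and sympathetic precursors, read 481, 278 and 280.0, highest on control 1. CRABP1, a retinoic acid binding protein abundant in crest and hindbrain, read 562, 2413 and 1068, a 4.29-fold range with control 2 the highest, and its log2 difference of control 2 from control 3 alone was 1.18.

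Some markers commonly used to recognise crest were not above background on all arrays. CDH6, the cadherin of premigratory chicken crest, read 17.7, 24.5 and 44.8, and NGFR, the neurotrophin receptor of migrating crest, read 7.60, 19.2 and 22.2, both below background on every array. MYB, a transcription factor reported in chicken crest, read 2.80, 5.40 and 5.20. B3GAT1, the enzyme that makes the HNK-1 epitope, was above background on 2 of 3 arrays at 38.8, 145 and 174. CDH7, a cadherin of migrating chicken crest, was above it on 2 at 27.8, 71.1 and 77.5, and PDGFRA, a receptor of crest mesenchyme, on 1 at 45.6, 84.7 and 30.9. CDH6 and NGFR were each read by 1 probe set.

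Of 18 measured factors of the epithelial to mesenchymal transition 11 (61.1%, against 65.4% of all genes) were above background. Besides TCF12 these included ZEB2 at 3871, 4356 and 3789.9 and ZEB1 at 4241, 2985 and 3373, zinc finger repressors of epithelial genes, and TCF3 at 4080.4, 3283 and 3499.5, a class I bHLH factor. ZEB2, known also as SIP1 and required for crest formation, varied little between the arrays by its brightest probe set. For ZEB2 2 of 5 probe sets were above background on all arrays, and for ZEB1 2 of 4. The range of SNAI2 between arrays was 5.68-fold, against 1.15-fold for ZEB2 and 1.42-fold for ZEB1. PRRX1 read 426, 229.6 and 499 and SOX5, which regulates RHOB in chicken crest, read 353, 489 and 509. TWIST2, PRRX2, FOXC1, SOX6 and KLF4 were not above background on any array, although for PRRX2 a dimmer probe set passed it on at least 1.

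Of 20 measured cadherins and catenins 15 (against 65.4% of all genes) were above background. With the median probe set of each symbol 11 of 20 were, beside 7121 of all 13008 genes. CTNNB1, beta-catenin, read 23551, 21091 and 20229. CDH2, the neural cadherin of the tube, read 8404, 9711 and 8704, and CTNNA2, the neural alpha-catenin, read 4096, 3716 and 4273. CDH11, a cadherin of mesenchymal crest cells, read 2472, 1414 and 1764. CDH1, the epithelial cadherin, read 1409.8, 666 and 2448, lowest on control 2. JUP, plakoglobin of desmosomes and adherens junctions, read 1861, 2391 and 3148, and CTNND1, p120 catenin, read 1339.9, 1818 and 1635. CDH10 and CDH17 joined CDH6 below background on every array.

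Matrix proteins and their receptors were above background in 40 of 48 measured cases (83.3%, against 65.4% of all genes). With the median probe set of each symbol 29 of 48 were, beside 7121 of all 13008 genes. ADAM10, a membrane protease that cleaves cadherins, read 16236, 8957 and 10564. FN1, the fibronectin on which chicken crest migrates, read 10338, 4259.6 and 7212, the laminin chain LAMB1 read 7975, 6197 and 6856, and the chain LAMC1 read 9868, 4622 and 4902. ITGB1, the beta subunit shared by fibronectin and laminin integrins, read 7432, 5898 and 4939. All 5 of ADAM10, FN1, LAMB1, LAMC1 and ITGB1 were highest on control 1. COL18A1, of basement membranes, read 3785, 4741 and 5857, COL5A1 1982, 3352 and 3480.1 and SPARC, a collagen-binding matrix protein, 1342, 3152 and 3339, all 3 lowest on control 1. MMP2, a gelatinase active in chicken crest migration, read 1241, 605 and 1305, whereas MMP9, THBS2, ITGA8 and ADAM19 were not above background on any array (for ITGA8 another probe set was above it on at least 1).

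Progenitor factors of the neural tube were detected without exception. All 15 measured progenitor factors (against 65.4% of all genes) were above background, with a median intensity of 2850. FABP7, a fatty acid binding protein of radial progenitors and early glia, read 5198, 12436 and 9066. PAX6, of the lateral tube wall, read 4928, 6796 and 7744, and SOX3, which keeps progenitors undifferentiated, read 5159.7, 7289 and 6479.7. MSI1, an RNA binding protein of neural stem cells, read 5101, 7731 and 4892, and NES, nestin, read 2177, 5514 and 4446. The Notch effector HES5 read 2731, 4623 and 2874 and its relative HES6, which promotes neurogenesis, 5608, 5532 and 6145. SOX2 read 180.1, 307 and 389.8 and SOX1 154, 189 and 259. Of the 15 genes 13 were lower on control 1 than on the mean of controls 2 and 3. Over all genes above background this held for 4429 of 8513. The median log2 difference of the 15 genes was -0.53, beside -0.03 over all 8513 genes. Control 2 differed from control 3 by a median of 0.06 in the 15 genes.

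Of 17 measured genes of the ventral tube, floor plate and motor neurons 9 (52.9%, against 65.4% of all genes) were above background. PTCH1, receptor and target of SHH signalling, read 4686, 3361 and 3127. NKX6-1, of ventral progenitors, read 2946, 2531 and 2883, NKX6-2 1006, 1479.7 and 1473 and DBX2, of intermediate progenitors, 1724, 1795 and 1323. OLIG2, of motor neuron progenitors, read 309, 347 and 449, and FOXA2, of the floor plate, 217, 339 and 388. SHH, the floor plate and notochord signal, read 55.3, 459 and 317, an 8.30-fold range with control 1 close to background, and controls 2 and 3 alone differed by 0.53 in log2. The motor neuron factor MNX1, the SHH effector GLI1, the interneuron factor EVX1 and the guidance cue NTN1 were not above background on any array.

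Of 14 measured genes of the roof plate and dorsal interneurons 10 (71.4%, against 65.4% of all genes) were above background. WNT4 read 1987, 3896 and 3105, and WNT3A, a dorsal midline signal that promotes crest expansion, read 1207, 1555 and 1341. RSPO3, an enhancer of WNT signalling, read 3015, 2595 and 2959.9, and BAMBI, a pseudoreceptor that damps BMP signalling, 1432, 1861 and 1813. BMP5 read 1420.2, 630.4 and 1013 and BMP7 415, 422 and 558. BMP4, the dorsal signal associated with crest delamination, read 75.4, 69.2 and 98.5, near background on every array. WNT1, ATOH1 and RSPO1 were not above background on any array.

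The HOX genes above background lay almost entirely at the anterior end of the clusters. Of 32 measured genes of the HOX list, CDX genes included, 10 (31.2%, against 65.4% of all genes) were above background. In paralog groups 1 to 4, which are expressed from the hindbrain backward, 7 of 8 measured genes were above background, and HOXB4 was on 2 of 3 arrays. In groups 5 to 8 this held for 1 of 9 genes, HOXA6, and in groups 9 to 13 for 1 of 12, HOXA10. HOXD4 read 3951, 4253 and 3232 and HOXA3 4999, 2615 and 2861. HOXB1, the gene of the fourth rhombomere in the older embryo, read 1650.3, 1634 and 1958, HOXB3 1579, 1815 and 1248, HOXA4 386, 535 and 295 and HOXA2, which patterns second arch crest, 149.7, 263 and 257. HOXA6 read 127, 161 and 152 and HOXA10 90.7, 171 and 147. For HOXB1 1 of 5 probe sets was above background, and for HOXD4, HOXA3 and HOXB3 1 of 2 each. With the median probe set of each symbol the count of the HOX list, which also holds CDX2, fell from 10 to 8. HOXB6, HOXB8, HOXC8, HOXD8, HOXA9 and HOXC9 were among the genes below background on every array.

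**Figure D3:**
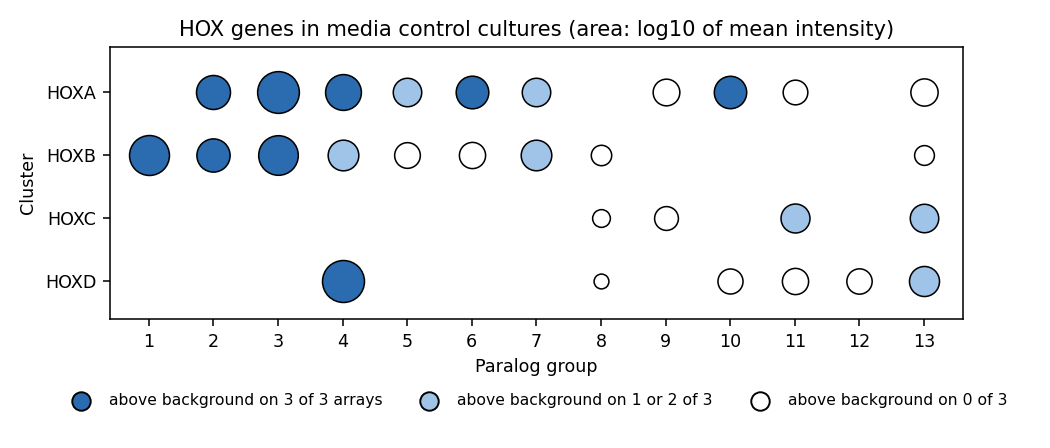
Measured HOX genes placed by cluster (rows) and paralog group (columns), with symbol area standing for log10 of the mean intensity over the 3 media control arrays and fill for the number of arrays above background. Dark symbols, above background on all 3 arrays, fill 7 of 8 places in groups 1 to 4 and 2 places beyond them, HOXA6 and HOXA10.

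Regional factors of the brain were detected in a minority, 10 of 25 measured, against 65.4% of all genes. After GBX2 the brightest were PBX3, a cofactor of HOX proteins, at 1666, 1492 and 1996 and IRX1, an Iroquois factor of midbrain and hindbrain, at 1301, 1585 and 2259. MEIS2 read 163, 652 and 712, lowest on control 1. OTX2, of forebrain and midbrain, read 315, 164 and 470.1, and PAX2, of the midbrain to hindbrain boundary, 273, 127 and 227, both lowest on control 2. IRX4 read 496, 197 and 310.4 and EN1 93.9, 146 and 177. The forebrain and eye factors SIX3, SIX6, LHX2, LHX5, LHX9, EMX2 and VAX1 were not above background on any array. In this list 9 of the 10 detected genes were lower on control 2 than on control 3, at a median log2 difference of -0.47. Over all 8513 genes above background 4438 were lower on control 2, at a median of -0.02.

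Of 21 measured genes of young neurons 10 (47.6%, against 65.4% of all genes) were above background. NEFM, the middle neurofilament subunit, read 11116, 10067 and 10517, and DCX, a microtubule protein of migrating neurons, 5884, 4645 and 5074. DLL1, the Notch ligand of newborn neurons, read 1422, 2172 and 2353. ELAVL4, an RNA binding protein of neurons, read 603, 366 and 252, and NHLH2, a bHLH factor of early neurons, read 364, 399 and 429. Its relative NHLH1 read 132, 542 and 425, lowest on control 1. TUBB3, the neuronal tubulin, read 62.0, 846 and 726. MAP2, SYT1, CHRNA3, NEUROD1 and NEUROD4 of this list were not above background on any array. Another probe set of SYT1 was above it on at least 1.

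Genes of sympathetic and pigment cells, lineages that crest forms later in the embryo, were detected in a minority of cases. The shares were 27.3% and 13.3%, against 65.4% of all genes. Of 11 autonomic and sympathoadrenal genes 3 were above background: CHGA, of secretory granules, at 203, 949.5 and 442, RET, and SLC18A1, a monoamine transporter, at 109, 193 and 253. HAND2, HAND1, GATA2, DBH and DDC were below background on every array, and TH, the first enzyme of catecholamine synthesis, was above it on 1 of 3. Of 15 melanocyte genes 2 were above background, EDNRB and MITF, the master regulator of pigment cells, at 698, 554 and 534. The pigment genes TYRP1, MLPH, GPR143, OCA2, RAB38 and TRPM1 were below background on every array, and DCT, PMEL and TYR on at least 1. For MITF 1 of 5 probe sets was above background.

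Glial genes were above background in 6 of 9 cases (66.7%), a share like the 65.4% of all genes. Above 2 times the background 4 of 9 remained, beside 7192 of all 13008 genes. Among the 6 were FABP7 and SOX10, which are shared with progenitors and migrating crest. PMP22, a myelin protein also found outside glia, read 449, 533 and 405. MBP, a myelin protein, read 173, 218 and 202, GFRA3, a GDNF family receptor, 102, 88.5 and 80.9, and S100B 62.7, 93.5 and 67.5. MAL, of compact myelin, was not above background by its brightest probe set. GFAP and CDH19 passed background on 1 and 2 arrays.

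Of 23 measured genes of cartilage, bone and smooth muscle 7 (30.4%, against 65.4% of all genes) were above background. TAGLN, a smooth muscle actin binding protein, read 393, 3145 and 1526. COL2A1, a collagen of cartilage and notochord sheath, read 676, 751 and 1204, COL9A1 1175, 567 and 793, SPP1, osteopontin, 475, 566 and 1145, and HAPLN1, which links hyaluronan to proteoglycans, 700.1, 391 and 649. RUNX2, the regulator of bone, COL10A1, MATN1 and IBSP were below background on every array, and so were the smooth muscle genes ACTA2 and MYH11. Read together, 4 lists of later crest lineages (autonomic, melanocyte, cartilage and glia) had between 13.3% and 66.7% of their measured genes above background, against 65.4% over all genes.

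Markers of tissues around the tube were measured alongside the crest genes, since any of them could adhere to an explant. Of 29 genes of mesoderm, somite and notochord 10 (34.5%, against 65.4% of all genes) were above background. LFNG, a modifier of Notch used in somites and also in the neural tube, read 12062, 10921 and 12457. TBXT, of notochord and primitive streak, read 592, 391 and 266, and NOTO, of the node and notochord, 92.1, 95.8 and 81.2. MEOX1, of somites, read 199, 126 and 482, highest on control 3. The BMP antagonist NOG read 212, 234 and 174, and CHRD, another, read 143, 236 and 179.6. TBX6, MSGN1, TCF15, TBX18, MIXL1 and FOXC1, which mark paraxial mesoderm or its precursors, were below background on every array, although another probe set of TCF15 passed it on at least 1.

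Skeletal muscle genes were above background in 3 of 12 cases, a minority, against 65.4% of all genes. MYL4, the embryonic essential myosin light chain, read 2712, 9020.1 and 6168, and ACTA1, skeletal actin, 295, 685 and 719, both lowest on control 1. TNNT3, a fast muscle troponin, read 56.9, 72.5 and 105. MYOD1, MYOG, MYF6, MYL1 and TNNI2 were below background on every array. Cardiac genes were above background in 5 of 25 cases, also a minority, against 65.4% of all genes. CSRP3, a muscle LIM protein, read 401, 653 and 301, ACTC1, cardiac actin, 125, 261 and 200.0, the myosin heavy chain MYH15 175, 158 and 136, and the heavy chain MYH7 103, 85.6 and 76.1. NKX2-5, TBX5, GATA4, HAND1, HAND2 and TNNT2 were below background on every array.

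Surface ectoderm and epithelium genes were above background in 10 of 21 cases (47.6%, against 65.4% of all genes). EPCAM, an adhesion protein of epithelia, read 6851, 3429 and 7741. CLDN1, a tight junction claudin, read 6795, 2696 and 7299, and KRT7, a keratin of simple epithelia, 3355, 591 and 2903. LAMA5, a laminin chain of epithelial basement membranes, read 2055, 1529 and 2081, and ESRP2, an epithelial splicing regulator, 570.4, 152 and 611. For EPCAM, CLDN1, KRT7, LAMA5, CDH1 and ESRP2 alike, control 2 was the lowest array. TP63, the regulator of stratified epidermis, read 242, 209 and 196 and did not follow that order. ESRP1, GATA2, CDX1, TFAP2C and DLX3 were below background on every array. Of 17 placode and lens factors 5 (29.4%, against 65.4% of all genes) were above background. EYA2, of the preplacodal ectoderm, was among them at 457, 225 and 875. CRYAA, PITX3 and FOXE3 of the lens were below background on every array.

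Endoderm genes were above background in 13 of 20 cases (65.0%), a share like the 65.4% of all genes. TF, transferrin, read 4598, 3408 and 3584, and FGB, a fibrinogen chain, 1431, 1393 and 1508. HHEX, a factor of anterior endoderm and vessels, read 579, 336 and 597, TTR, transthyretin, 216, 513 and 254, and SOX17 292, 183 and 151. GATA4, GATA6, AFP and NKX2-1 were below background on every array. Requiring 2 times the background lowered the count over all 13008 genes from 8513 to 7192. It lowered the counts of 6 lists by over 1.5 times. These fell to 7 of 20 for endoderm, 4 of 29 for mesoderm, 6 of 21 for endothelium and 3 of 17 for placodes. Blood and late organs were left with 2 of 18 each.

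Blood genes were above background in 5 of 18 cases (27.8%) and endothelial genes in 12 of 21 (57.1%), against 65.4% of all genes. LMO2, a cofactor in the common precursors of blood and vessels, read 558, 461 and 839, and its bHLH partner TAL1 read 302, 307 and 211. The globin HBE read 85.1, 149 and 93.4, while HBA1 and HBZ were below background on every array, as were the myeloid factor SPI1 and the factor RUNX1. CDH5, the cadherin of endothelium, read 634, 184 and 297 and was highest on control 1. KDR, the VEGF receptor of angioblasts, read 308, 303 and 278, ESAM, an endothelial adhesion protein, 214, 337 and 326, and SOX7 259.6, 88.2 and 366. TIE1, VWF, EMCN, ROBO4 and SELE were below background on every array.

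Genes of pluripotency and germ cells were above background in 5 of 12 cases (41.7%, against 65.4% of all genes). SALL4, a zinc finger factor of early embryos, read 667, 649 and 584, and PIWIL1, a piRNA binding protein, 530.3, 436 and 429. LIN28A, which blocks let-7 processing, read 208, 601 and 496. DAZL, PRDM1, KLF4 and TFCP2L1 were below background on every array. Genes of late and adult organs served as a list of tissues that have not formed at stage 9. Of 18 measured 4 (22.2%, against 65.4% of all genes) were above background. APOH, a plasma glycoprotein, read 1336, 3501 and 3354 and AMY2A, pancreatic amylase, 406, 155 and 275. ALB, albumin, read 108, 72.5 and 137 and INS, insulin, 92.9, 96.2 and 104. For AMY2A 1 of 5 probe sets was above background on all arrays, and ALB is also counted in the endoderm list. OVAL, VTG1, UMOD, CPA1, FGG and FABP1 were below background on every array.

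The spread between the 3 arrays was measured as the SD of log2 intensity over the arrays for each gene above background. Its median was 0.29, with quartiles at 0.17 and 0.45 and a 95th percentile of 0.84. The highest array exceeded the lowest by over 2-fold in 1527 genes (17.9%) and by over 4-fold in 197. Control 1 was the lowest array in 1109 of the 1527 genes and the highest in 308. Control 2 was lowest in 303 and highest in 726, and control 3 lowest in 115 and highest in 493. Without control 1 the median SD was 0.154 and 223 genes passed 2-fold, a count that falls in part because a range over fewer arrays is narrower. The median SD was 0.35 in the 1945 genes at 1 to 4 times background, 0.33 in the 2429 genes at 4 to 16 times and 0.25 in the 4139 genes above that.

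Taken pair by pair, 1200 genes (14.1%) differed by over 2-fold between controls 1 and 2, 931 (10.9%) between controls 1 and 3 and 208 (2.44%) between controls 2 and 3. Control 1 was over 2-fold lower than the mean of controls 2 and 3, taken on the log2 scale, in 825 genes (9.69%) and over 2-fold higher in 133 (1.56%). Control 2 was over 2-fold lower than control 3 in 133 genes (1.56%) and over 2-fold higher in 75 (0.881%). These differences have 1 array on a side and no replicate, so none was tested.

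The most stable genes differed by a few percent between the arrays. ME1, the cytosolic malic enzyme, read 2398, 2410.2 and 2414, the smallest spread of the 10 genes taken here, all with means over 1000. HSPD1, the mitochondrial chaperonin, read 20788, 20811 and 20478, and PNRC1, a nuclear receptor coactivator, 18719, 18513 and 18286. GTPBP4, of ribosome assembly, read 9513, 9683 and 9675, and E2F4, a cell cycle repressor, 1933, 1931 and 1963. The others of the 10 were ARHGAP18, HEATR1, SFR1, SHROOM1 and HACD2. In all 10 the highest array was at most 1.024 times the lowest.

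Genes with control 1 as the lowest array had varied roles, with TUBB3 and SHH known from the neural tube. TUBB3 had the widest range among them, 13.7-fold, with 62.0 on control 1, near background, against 846 on control 2 and 726 on control 3, which differed by 0.22 in log2 between themselves. ALDOC, a brain-type aldolase, read 1565 on control 1, against 13621 and 7434 on controls 2 and 3, and MVD, of cholesterol synthesis, 155 against 1489 and 849. TAGLN and SHH belonged here too, as did OLFML3, a secreted olfactomedin family protein, CCT3, a subunit of the cytosolic chaperonin, CYBA, of the phagocyte oxidase, TMEM167B and RABIF. SNAI2 and ID1 were chosen here after their values were seen. SNAI2 had a log2 difference of -2.39 for control 1 against the mean of controls 2 and 3, and ID1 one of -2.57. By the same difference 4429 of all 8513 genes above background were lower on control 1. Of 10 detected early neuron genes 6 were lower and 4 were higher. DCX, at 0.28, and ELAVL4, at 0.99, were among the higher. Each of TUBB3, ALDOC, MVD, TAGLN, SHH and SNAI2 was read by 1 probe set. The 3' bias of control 1 in the beta-actin and GAPDH sets moves with these differences, and its part in them was not tested.

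Genes with control 1 as the highest array had matrix and secreted proteins among them. RFKL read 3703 on control 1, against 463 and 845 on controls 2 and 3. LUM, a small proteoglycan of collagen fibrils, read 1212 against 219.8 and 1021, and the fibulin FBLN2 1834 against 373 and 1297. CXCL12, the ligand of CXCR4, read 1796 against 345 and 1372, and KRT7 3355 against 591 and 2903. For LUM, FBLN2, CXCL12 and KRT7 control 2 was the low array, and control 3 lay closer to control 1 than to control 2. The other genes of this pattern were the collagens COL14A1 and COL23A1, the complement regulator CFI, the cytokine receptor subunit IL13RA1 and the splicing protein SF3B5.

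**Figure D4:**
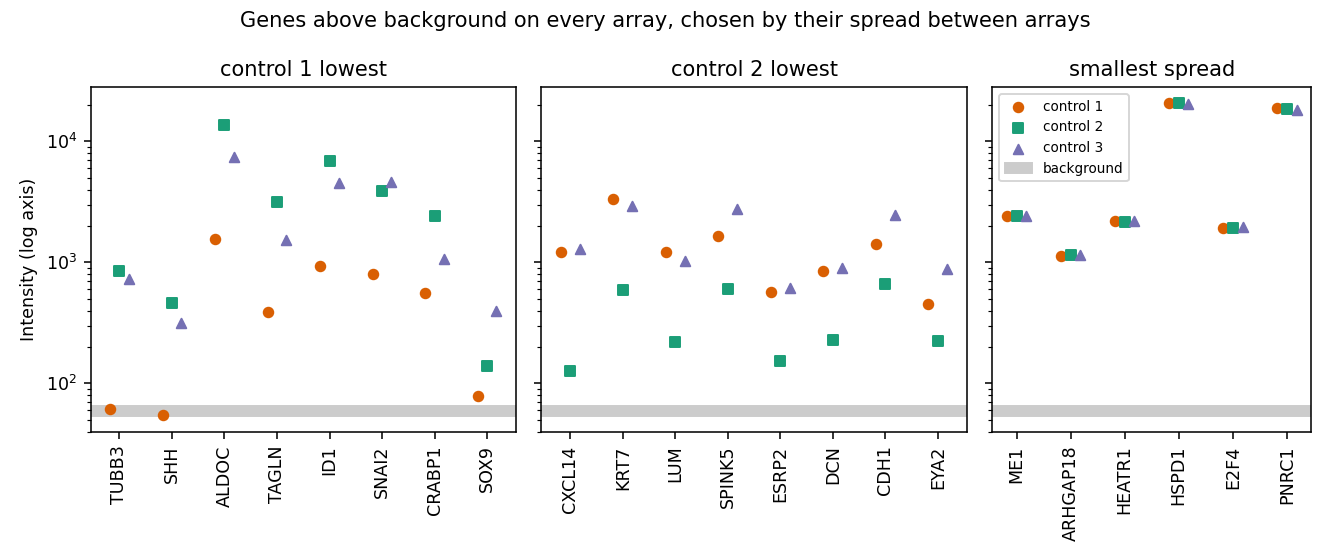
Intensity (log axis) on each media control array for genes lowest on control 1, genes lowest on control 2 and genes with the smallest spread, with a grey band over the range of the 3 backgrounds. The genes were picked for these patterns, and TUBB3 reads 62.0 on control 1, CXCL14 128 on control 2 and ME1 between 2398 and 2414.

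Where control 1 lay between the others, control 2 was mostly the low array. CXCL14, a chemokine of surface ectoderm in chicken, read 128 on control 2, against 1291 on control 3 and 1228 on control 1, a 10.1-fold range. SPINK5, a protease inhibitor of epidermis, read 605 on control 2, against 2789.6 on control 3, and ESRP2 152 against 611. DCN, decorin of connective tissue, read 227 against 898, and the receptor EPHA1 128 against 525. ASS1, of arginine synthesis, MPZL3, of skin, and SOX7 had the same order of controls 2 and 3. TXNDC11 and MAPT, the microtubule protein tau, were instead higher on control 2, MAPT at 1109 against 273.

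Of the 10 genes of the surface ectoderm list above background 8 were lower on control 2 than on control 3. Over all genes above background this held for 4438 of 8513. The median log2 difference of the 10 genes was -1.12, beside -0.02 over all 8513 genes. The summed intensity of these 10 genes was 9830 on control 2, against 23987 on control 3 and 21714 on control 1. Over all 21 measured genes of the list it was 10386 on control 2, against 24984 on control 3 and 22264 on control 1. This sum holds the same 10 genes, so it is not a separate result. CLDN4, at 158, 267 and 212.5, was among the detected genes that were higher on control 2 than on control 3. Among lists with at least 5 genes above background, placode and lens factors came next at -0.51, then cartilage, bone and smooth muscle genes at -0.48. The brain regional list followed at -0.47. The HOX list, which also holds CDX2, had a median of 0.31 in the other direction. In the HOX list 8 of 10 genes were higher on control 2, against 4072 of 8513 over all genes above background. The part of epithelial RNA in the differences of other genes between controls 2 and 3 was not tested.

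**Figure D5:**
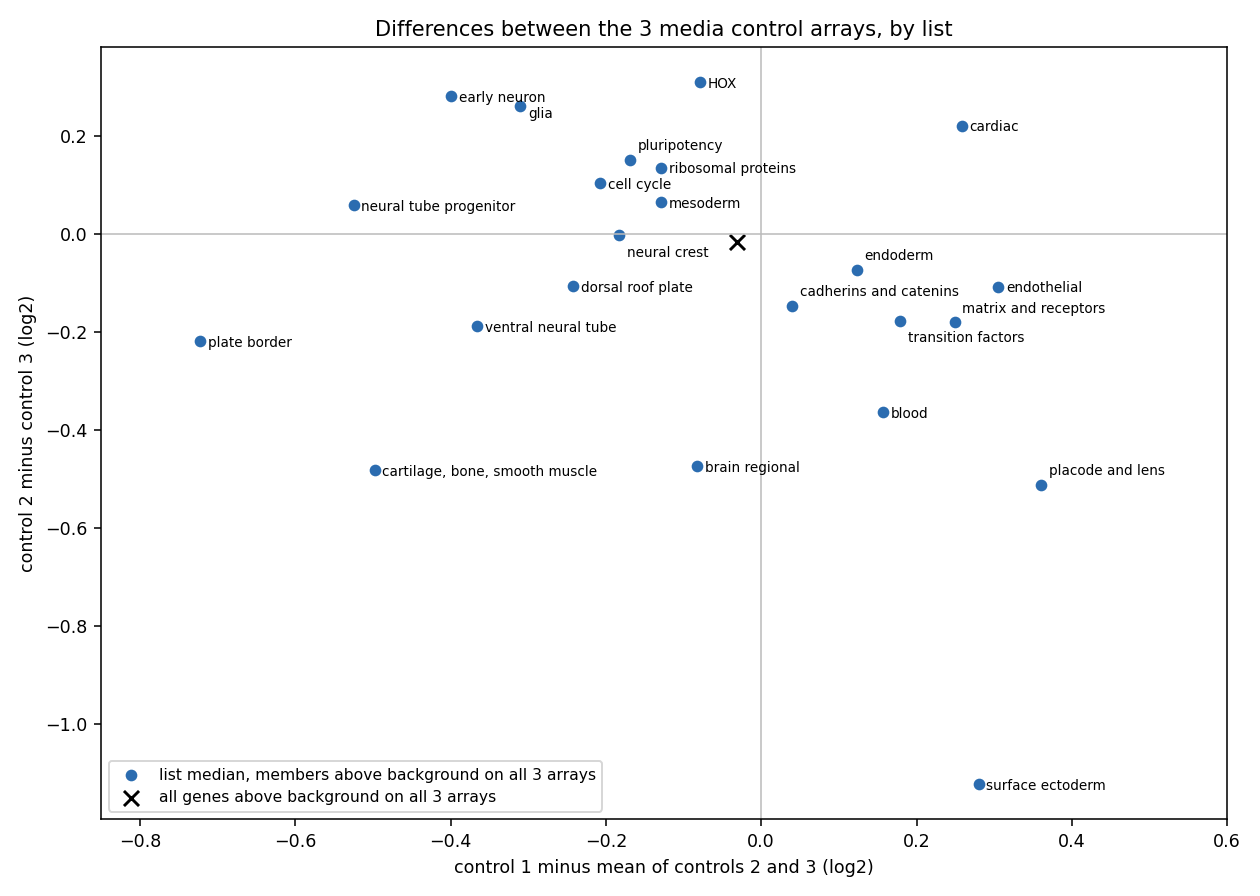
Median log2 difference of the genes above background in each list with at least 5 of them, with control 1 minus the mean of controls 2 and 3 on the horizontal axis and control 2 minus control 3 on the vertical axis. The surface ectoderm list lies lowest, at -1.12 on the vertical axis, the plate border list at -0.72 and the progenitor list at -0.53 on the horizontal axis, and all genes at -0.03 and -0.02.

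Control 1 was also set against the mean of controls 2 and 3 list by list, beside all genes, of which 4429 of 8513 were lower on control 1. The border list had a median log2 difference of -0.72, while 6 of 10 genes were lower on control 1 and its summed intensity was 48710 on control 1, against 44556 on control 2 and 46511 on control 3. Over 2-fold ranges were seen in 5 of its 10 genes. The crest list had -0.18, with 17 of 30 genes lower, and 11 of 30 had an over 2-fold range against 17.9% of all genes above background. The matrix list had 0.25, with 22 of 40 genes higher on control 1, and the endothelial list 0.31, with 9 of 12 higher. Centring each array on its median moved the median over all genes from -0.03 to 0.11. The border list then stood at -0.58, the progenitor list at -0.39 and the crest list at -0.05. Centring takes a constant from each array, so every list shifted alike and kept its distance from all genes. With control 1 left aside, the median difference of control 2 from control 3 was -0.22 for the border list, -0.002 for the crest list and 0.06 for the progenitor list. The low 5' to 3' ratios of beta-actin and GAPDH were on the same array as the differences of control 1, and their part in them was not tested.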

How the data were processed

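Total RNA of 6 samples was measured on 1-colour Affymetrix chicken arrays, and the 3 media controls, grouped by title, are described here. The deposited intensity values are linear, 1 value per probe set and array. RMA is named in the submitters' processing notes, yet the deposited values are linear and their mean after trimming 2% at each end is about 500.1 on each array, unlike RMA output. Which summary was used is not given in the sources used here. Columns of no sample numbered 0.

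Spreads and differences used log2 of the deposited intensity, with no pseudocount and no further normalization (Python 3.11.15, pandas 2.3.3, numpy 2.4.6, scipy 1.17.1, matplotlib 3.10.9). GEO's platform annotation, possibly outdated, supplied the symbols, updated by gene number through RefSeq GRCg7b. Of 38382 probe sets 27168 had 1 symbol, 177 several and 11037 none. The brightest set by control mean stood for each of 13008 genes, 7334 of which had several. No test and no p-value was used: the description has 1 group of 3 arrays, whose number limits its precision. The code was tested on simulated data.

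The members and the 27 gene lists (549 of 698 genes measured) were chosen with earlier results of these data known. Named were the 25 brightest genes, up to 6 detected and 6 undetected genes of each list, the 15 brightest factors, the 10 most variable genes of each pattern, the 10 most stable with a mean over 1000 and a set of standard markers. List members named beyond these were chosen after their values were seen. Alternatives were other backgrounds, normalizations, filters, summaries per gene and leaving out each array. Promoter features were planned and are not analysed here, as no promoter table was given.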

Additional observations from a re-analysis of the deposited data

Results flagged for a closer look

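A signal was also present in probe sets that the gene description did not use. Of 689 probe sets without the prefix that marks chicken sequences, 4 (0.581%) were above background on all 3 arrays and 655 on none, and the brightest averaged 720.8. Of 10527 chicken probe sets without a single gene symbol, 3170 (30.1%) passed background on every array, the brightest averaging 28850. These transcripts have no name here and are in none of the lists. Groups of 3 arrays were not searched for outlying values.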

How the results depend on the processing

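No paired analysis was possible because only 1 group is described and no result comes from a test. Other backgrounds, margins, required arrays, normalization, summaries per gene and leaving out each array kept the counts above background within 1.5 times: 12442 to 19128 probe sets against 16197, 7121 to 9443 genes against 8513 and 271 to 365 list genes against 321. Without a filter on dim genes the median SD of log2 intensity was 0.388 and 4724 genes passed 2-fold, as dim genes enter. Leaving out 1 array gave a median SD of 0.154 to 0.294 and 223 to 1216 genes past 2-fold. The lowest values were without control 1, and 942 genes passed without control 2. A range over fewer arrays is narrower by construction. Quantile normalization or centring turned the sign of a list median in 8 of 54 cases for control 1 against the others. For control 2 against control 3 this held in 3 of 54, and the cause was not tested. Centring shifts every list by the same amount, so it cannot change how the lists stand to each other. A list's count moved by over 1.5 times in 2 of 27 lists with the median probe set of a symbol and in 6 of 27 above 2 times the background. Genes near background carry the least firm calls.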

Other observations

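Differences between the arrays were also set against the chromosome of each gene, looked up in the RefSeq GRCg7b gene table. Over 8461 pairs of neighbouring genes above background, the Pearson correlation of the log2 difference of control 1 from the mean of controls 2 and 3 was 0.165, and that of control 2 minus control 3 was 0.029. These are descriptions across genes, which share arrays and base composition. Autosomes with 500 or more such genes had a median difference of 0.04 on control 1 (3825 genes), those with 100 to 499 had -0.10 (4001 genes) and those with under 100 had -0.66 (278 genes).

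The 384 genes of chromosome Z had a median log2 difference of 0.16 for control 1 against the mean of controls 2 and 3, and of -0.11 for control 2 minus control 3, with 129 of them higher on control 2. Of 11 genes of the female-specific chromosome W 9 were higher on control 2 than on control 3, beside 4072 of 8513 over all genes, with a median log2 difference of 0.54. Against the mean of controls 2 and 3 the W genes had a median of -0.60 on control 1. On that array 7 of 11 were lower, beside 4429 of 8513 over all genes. HINTW, a W-linked gene, read 24598 on control 2, against 16774 on control 3 and 12823 on control 1, and HNRNPKL read 2229.7, against 1016 and 772. Not all W genes had this order. LOC430910 read 667 on control 2, against 1227 on control 3 and 1485 on control 1, and NEDD4L 1249, against 1352.5 and 1741. Several W genes have close copies on chromosome Z, and how far their probe sets read both was not tested. The sex of the embryos is not given in the sources used here.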
